A study of Mus musculus with 4 samples.

Results

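The regions described here lie on mouse chromosome 7 on both sides of the beta-globin locus, in intervals that hold olfactory receptor genes of class I. They were taken by position alone. All probes of the tiling array that start between 109.65 and 110.9 Mb (the left side) or between 111.7 and 112.2 Mb (the right side) were used, with positions on build mm9 per the file headers. Probes at most 500 bp apart were joined into regions of up to 2000 bp with at least 3 probes. This gave 220 regions of the 56653 on the array, 172 on the left side and 48 on the right side. They hold 1760 of the 1804 probes that start in the intervals. 1 further region crosses a border of the intervals and is not counted among them. The probes name no gene and an annotation of mm9 was not used here, so a region is given by its position and no receptor gene is assigned to it.

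Livers of C57BL/6J fetuses were collected on gestation day 18. In the food restricted group the dams had received, from gestation day 10 to 17, 50% of the chow that control dams ate, and in the control group the dams ate freely. Each group was 1 pool of liver DNA described as N = 6, without a statement whether fetuses or litters were counted and without their sex. Methylated DNA precipitated from the pool was hybridised against the pool's own total DNA, called the reference, on 2 arrays with the dyes exchanged, and both pools shared each of the 2 slides. The arrays of a pool repeat the hybridisation of 1 sample, so the groups have no biological replicates. For that reason no test was run, and each value is given for slide 1 and then slide 2. Each pool had the same place on both slides, so the place of an array and its pool cannot be told apart.

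Olfactory receptors are receptors for odorants, and each olfactory sensory neuron uses a single receptor gene. Mammals carry a class I family, related to the receptors of fish, and a much larger class II family. In mouse and human the class I genes stand in a single cluster, and the beta-globin genes are embedded in it. They are best known from the olfactory epithelium, and expression was not measured here. Precipitation of methylated DNA enriches fragments that carry several methylated CpG sites. A fragment poor in CpG therefore gives little signal whether or not its few sites are methylated.

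To show what kind of sequence such genes carry at their start, promoters of RefSeq on build GRCm38.p6 were used. That build differs from the one of the array, so they describe the gene family and not the measured regions. Between Rrm1 and Cnga4, which border the cluster in the table's gene order, RefSeq lists 158 olfactory receptor symbols, of which 126 are protein coding and 32 are pseudogenes. Before the beta-globin genes stand 93 of them and after the beta-globin genes 65. The same stretch also lists 6 beta-globin, 13 Trim and 3 Ubqln symbols. A region called class I here was taken by position and may thus lie at a gene that is not a receptor gene. The table of promoters holds 109 of the 158. In the 250 bases before the start of the gene, these 109 promoters had a median of 1 CG dinucleotide and at most 4, and 45 of them (41.3%) had none. The 839 promoters of the other olfactory receptor genes had a median of 1 and 44.6% had none. Over all 32851 promoters the median was 6 and 7.87% had none. The word TAATTA, which reads the same on both strands and forms the core of sites for homeodomain factors, stood in 16 class I promoters (14.7%), in 18.5% of the other receptor promoters and in 4.84% of all promoters. The median GC content of these sets was 36.4%, 33.6% and 52.4%, in the same order. A match to the word is a description and not a binding site.

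The following promoters are shown 5′ to 3′ with CG in capitals, so that the scarcity of the dinucleotide that the assay reads can be seen. Olfr67 and Olfr66 are the receptor genes with a listed promoter that stand next to the beta-globin genes, 1 on each side. Olfr550 has the most CG of the class, as do others with the same count, Olfr544 has none, and Rrm1, which encodes a subunit of ribonucleotide reductase, is a housekeeping gene beside the cluster.
Olfr67, chr7:103791831-103792080, minus strand: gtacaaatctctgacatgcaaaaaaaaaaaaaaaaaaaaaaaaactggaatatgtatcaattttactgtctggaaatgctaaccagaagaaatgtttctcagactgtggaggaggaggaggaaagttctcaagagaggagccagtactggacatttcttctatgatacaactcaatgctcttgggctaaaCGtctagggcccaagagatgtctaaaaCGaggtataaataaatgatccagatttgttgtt
Olfr66, chr7:103882242-103882491, minus strand: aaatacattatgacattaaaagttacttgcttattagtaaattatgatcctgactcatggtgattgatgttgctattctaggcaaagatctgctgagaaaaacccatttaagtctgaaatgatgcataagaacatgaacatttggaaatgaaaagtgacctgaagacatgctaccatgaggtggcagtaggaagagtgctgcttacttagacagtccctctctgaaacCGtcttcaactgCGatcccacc
Olfr550, chr7:102578219-102578468, plus strand: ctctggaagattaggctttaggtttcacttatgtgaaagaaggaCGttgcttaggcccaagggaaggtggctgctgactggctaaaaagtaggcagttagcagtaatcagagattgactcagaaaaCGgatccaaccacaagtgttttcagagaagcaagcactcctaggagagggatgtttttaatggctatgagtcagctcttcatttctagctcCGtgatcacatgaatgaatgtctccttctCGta
Olfr544, chr7:102488308-102488557, minus strand: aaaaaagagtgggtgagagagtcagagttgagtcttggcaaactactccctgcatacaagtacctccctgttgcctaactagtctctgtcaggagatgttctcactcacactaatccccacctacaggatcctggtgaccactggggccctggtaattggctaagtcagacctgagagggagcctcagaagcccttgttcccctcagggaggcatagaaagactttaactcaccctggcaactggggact
Rrm1, chr7:102441445-102441694, plus strand: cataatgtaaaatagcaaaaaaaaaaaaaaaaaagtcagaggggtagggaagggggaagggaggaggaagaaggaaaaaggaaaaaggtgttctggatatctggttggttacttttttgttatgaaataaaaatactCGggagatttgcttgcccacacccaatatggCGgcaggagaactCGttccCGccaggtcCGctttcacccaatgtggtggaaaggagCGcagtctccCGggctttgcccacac
Olfr67 and Olfr66 had 2 CG each, Olfr550 had 4, and Rrm1 had 7 in the same length.

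The array covered the intervals as separate tiled windows. Windows were taken as runs of probes with gaps of at most 2000 bp, and 88 of them held the 1804 probes, 64 on the left side and 24 on the right side. A window was 4308 bp long in the median and held 21 probes, against a median length of 4403 bp over the 20721 windows of the array. The member regions had a median of 8 probes and 1355.5 bp, and 15 of them had 3 probes.

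The measure of enrichment is M, which is the precipitated over the reference signal on the log2 scale, shifted so that each array has a median of 0, and the value of a region is the median M of its probes. The class I regions were low on all 4 arrays. Their median M was -0.74 and -0.72 in the food restricted pool on slides 1 and 2, and -0.92 and -0.79 in the control pool. Over the 56433 other regions of the array the median was -0.09 and -0.08 in the food restricted pool and -0.08 and -0.09 in the control pool. The class I regions thus lay below the others by differences of -0.66 and -0.65 in the food restricted pool and -0.84 and -0.70 in the control pool. The SD of this difference over the 4 arrays was 0.091. It mixes the repeat of the hybridisation with the difference between the pools, and does not describe the spread among regions. In both pools the quartiles were wide. M averaged over the arrays of the pool ran from -1.28 to 0.05 between the quartiles in the food restricted pool and from -1.38 to 0.23 in the control pool.

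Many class I probes were dim in the precipitated channel, where 48.3% and 47.9% of the class I probes were well above background in the food restricted pool, and 37.7% and 37.3% in the control pool. Over all probes the shares were 79.9% and 80.6% in the food restricted pool and 72.2% and 72.0% in the control pool. In the reference channel, which holds unselected DNA, 84.8% and 93.5% of the class I probes were well above background in the food restricted pool and 84.3% and 91.7% in the control pool. The median background-subtracted precipitated signal of the class I probes was 17.3 and 12.5 units in the food restricted pool and 9.82 and 8.07 units in the control pool. Of the 220 regions, 118 (53.6%) were dim in the food restricted pool and 142 (64.5%) in the control pool, where dim means that under a share of 0.5 of the region's probes, averaged over the pool's arrays, was well above background in the precipitated channel. Among all regions 12.1% were dim in the food restricted pool and 20.5% in the control pool.

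How low the class I regions stood depended on how such probes were handled. When probes with a dim reference or saturation were left out, the class I regions lay -0.95 from the others. When probes with a dim precipitated signal on any array were left out, 80 class I regions could still be formed and these lay 0.495 above the others, a filter that keeps by its construction the probes with high precipitated signal. With the normexp background correction, whose added offset of 50 units exceeds the median precipitated signal of these probes, the difference was 0.0317, and with loess normalisation it was -0.0754.

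The sides differed from each other in level. On the left side the median M was -0.67 and -0.69 in the food restricted pool and -0.77 and -0.66 in the control pool, and on the right side -1.11 and -0.99 in the food restricted pool and -1.24 and -1.09 in the control pool. The left side was higher on all 4 arrays, by 0.44, 0.30, 0.46 and 0.43 for the food restricted pool on slides 1 and 2 and the control pool on slides 1 and 2, with an SD of 0.071 over the arrays. Dim regions made up 51.2% of the left and 62.5% of the right side in the food restricted pool, and 62.2% and 72.9% in the control pool. The part of this in the difference was not tested. Without dim precipitated probes the direction turned to -0.321, and with normexp the difference was 0.0069. The 93 regions of the interval between the sides, which holds the beta-globin genes, had medians of -0.79 and -0.64 in the food restricted pool and -0.92 and -0.70 in the control pool, a range that overlaps that of the left side. That interval runs from 110.9 to 111.7 Mb. On GRCm38.p6 the listed receptor promoters next to the globin genes lie at 103791831 and 103882242, a much shorter stretch. The interval may thus hold class I receptor genes as well, which was not checked on mm9. Within 1 Mb outside the cluster, the 59 regions to the left had pool medians of -0.11 in the food restricted pool and -0.15 in the control pool, and the 77 regions to the right -0.51 and -0.62. The share of dim regions there was 13.6% and 24.7% in the food restricted pool and 20.3% and 41.6% in the control pool, for left and right.

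**Figure D1:**
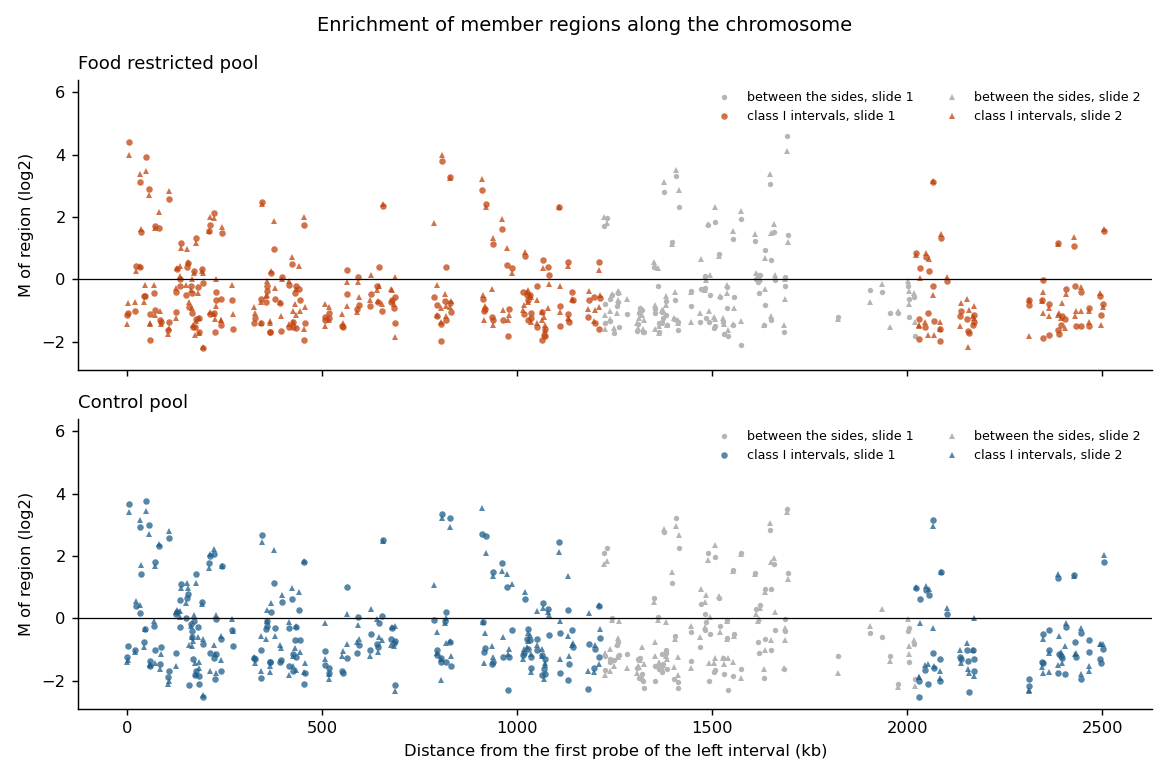
M of each class I region (coloured) and of each region between the sides (grey) against distance in kb from the first probe of the left side, with the food restricted pool above the control pool and circles and triangles for slides 1 and 2. Most regions lie below 0 in both pools, and single regions reach 3 to 4 at several places of the left side.

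Intervals with class II receptor genes gave a comparison. It is one of intervals and not of receptor genes alone, since genes were not assigned to the regions. Intervals taken from general knowledge of their clusters were used, on chromosome 2 from 85 to 90 Mb with 510 regions and on chromosome 9 from 38 to 40 Mb with 191 regions. On chromosome 2 the median M was -0.96 and -0.76 in the food restricted pool and -0.97 and -0.74 in the control pool, and on chromosome 9 -1.14 and -0.96 in the food restricted pool and -1.29 and -1.09 in the control pool. The right side of the class I cluster and the chromosome 9 interval overlapped over the arrays. At the upper end the shares were apart. M above 1 was found in 30 of 220 class I regions in the food restricted pool (13.6%) and in 31 in the control pool (14.1%). In the class II intervals it was found in 3.73% and 5.76% of regions in the food restricted pool and in 4.71% and 6.81% in the control pool, for chromosomes 2 and 9. In the interval between the sides the share was 17.2% in both pools. Over all regions the shares were 27.8% in the food restricted pool and 29.7% in the control pool. Dim regions were more frequent in the class II intervals, with 78.2% and 74.3% in the food restricted pool and 87.8% and 85.3% in the control pool, and the part of this in the difference was not tested.

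**Figure D2:**
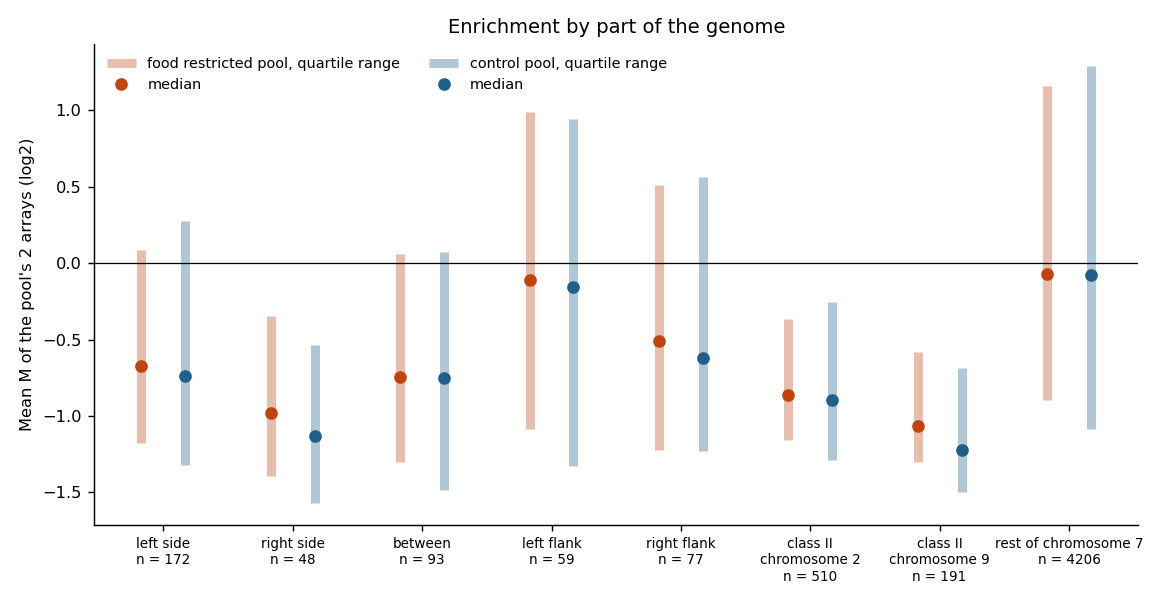
Median (point) and quartile range (bar) of the mean M of each pool for the sides of the class I cluster, the interval between them, flanks of 1 Mb, class II intervals and the rest of chromosome 7, with the food restricted pool left of the control pool. The class I medians lie between -0.68 and -1.13, next to those of the class II intervals and below the left flank.

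The enriched regions were not spread evenly along the left side. In steps of 250 kb from its outer border, 12 of 50 regions in the first step had a mean M over the 4 arrays above 1, then 5 of 39, 1 of 23, 6 of 22 and 1 of 38. On the right side 2 of 23 regions in the first step and 3 of 25 in the second had such a value. The first step of the left side was also the brightest, with 68.5% of its probes well above background in the precipitated channel of the food restricted pool and 57.4% in that of the control pool, averaged over its regions. In the third step these shares were 34.9% and 24.2%.

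Within a window the ends and the centre differed. Windows of 3 to 5 kb were used, and probes were grouped by distance from the window's centre. Within 500 bp of the centre, the median M of 353 class I probes was -1.23 and -1.02 in the food restricted pool and -1.32 and -1.13 in the control pool. From 500 to 1000 bp it was -1.06 and -0.95 in the food restricted pool and -1.20 and -1.12 in the control pool. From 1000 to 1500 bp it was -0.60 and -0.50 in the food restricted pool and -0.67 and -0.45 in the control pool. From 1500 to 2000 bp it was -0.03 and -0.08 in the food restricted pool and -0.04 and -0.05 in the control pool, close to the median of the array. In the outermost step, from 2000 to 2500 bp, 145 probes had -0.09 and -0.05 in the food restricted pool and -0.29 and -0.03 in the control pool. M was thus higher 1500 to 2000 bp away than at the centre on all 4 arrays, by 1.20 and 0.94 in the food restricted pool and by 1.28 and 1.08 in the control pool.

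On both sides of the cluster M was higher at 1500 to 2000 bp than at the centre. At the centre the mean M of the pool's arrays had a median of -1.18 on the left side and -1.10 on the right side in the food restricted pool, and of -1.23 and -1.39 in the control pool. At 1500 to 2000 bp it was -0.08 and -0.13 in the food restricted pool, and -0.12 and -0.06 in the control pool. On the right side the lowest values lay from 500 to 1000 bp, at -1.33 in the food restricted pool and -1.45 in the control pool, so the order of the steps was not the same there. Class II probes showed a smaller step, with -1.02 at the centre and -0.76 at 1500 to 2000 bp in the food restricted pool and -1.12 and -0.81 in the control pool. Over all probes of the array the values were -0.06 at both distances in the food restricted pool, and -0.04 and -0.07 in the control pool. What the windows are centred on is not stated in the sources used here.

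Brightness moved with this profile. At the centre 26.2% of the class I probes were well above background in the precipitated channel of the food restricted pool and 16.3% in that of the control pool, against 69.3% and 57.7% at 1500 to 2000 bp. In the reference channel the share was 84.3% at the centre and 94.2% at 1500 to 2000 bp, averaged over the arrays. Class II probes were dimmer, with 20.8% and 10.7% in the precipitated channel of the pools at the centre and 44.6% and 32.4% at 1500 to 2000 bp. Their shares in the reference channel were 77.2% and 83.6% at these distances. The part of brightness in their smaller step was not tested. With only probes whose reference was well above background on all arrays and not saturated, the step of M over the 4 arrays was 1.28, against 1.06 with all probes. With dim precipitated probes left out it was 2.37, from 45 probes at the centre and 176 at 1500 to 2000 bp. With loess it was 0.587 and with normexp 0.118.

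**Figure D3:**
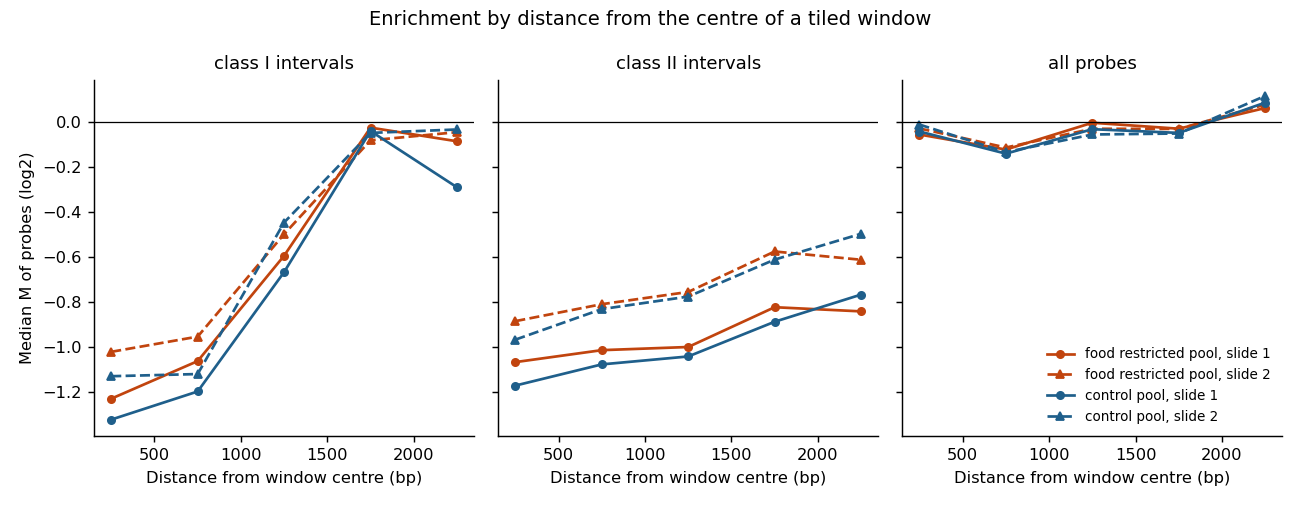
Median M of probes against distance from the centre of their tiled window, in steps of 500 bp, for the class I intervals, the class II intervals and all probes, with a line per array (food restricted pool in orange, control pool in blue, slide 2 dashed). In the class I intervals all 4 lines rise from below -1 at the centre to near 0 at 1500 to 2000 bp, and over all probes they stay between -0.15 and 0.12.

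By regions, 30 class I regions had a mean M over the 4 arrays above 1, and 0 of them had their midpoint within 500 bp of a window centre. Of the 94 class I regions with a mean M below -1, 31 (33.0%) lay there. Over the whole array 19.3% of the regions above 1 and 23.4% of those below -1 did. The 30 enriched regions lay in 27 of the 83 windows that hold class I regions. In 21 windows (25.3%) a region above 1 stood beside a region below -1, against 16.8% of windows over the array and 6.51% in the class II intervals. In 34 windows (41.0%) no region reached 0, against 26.8% of windows over the array and 69.2% in the class II intervals. No class I window had all its regions above 1, against 1527 of 19972 windows over the array and 4 of 292 in the class II intervals.

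The window with the widest range, chosen after its values were seen, held 3 regions of 8 probes each. The first, chr7:110483541-110484841, had M of -1.98 and -1.38 in the food restricted pool and -1.39 and -1.98 in the control pool. The middle region, chr7:110484985-110486248, had -1.42 and -0.93 in the food restricted pool and -1.27 and -1.31 in the control pool. The third, chr7:110486398-110487576, had 3.80 and 3.98 in the food restricted pool and 3.34 and 3.22 in the control pool. The third region was enriched on every array while its neighbours were low on every array, and it is also the second highest of the class I regions with at least 5 probes.

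The region with the highest mean M among those with at least 5 probes was chr7:109727084-109728007, at 3.92 and 3.49 in the food restricted pool and 3.75 and 3.44 in the control pool (5 probes). It stood above 98.4% of all regions of the array. Next after the region at 110486398 came chr7:109711641-109713097, with 3.10 and 3.38 in the food restricted pool and 2.93 and 3.15 in the control pool on 9 probes. On the right side chr7:111744728-111745829 had 3.12 and 3.15 in the food restricted pool and 3.14 and 2.95 in the control pool on 9 probes. The fifth, chr7:110590676-110592032, had 2.86 and 3.22 in the food restricted pool and 2.69 and 3.53 in the control pool on 6 probes. In these 5 regions every probe was well above background in the precipitated channel on all arrays, apart from 1 of the 6 probes of the last. The food restricted value was above the control value on both slides at 109711641, 109727084 and 110486398, and at the last of these alone the arrays of the pools did not overlap.

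The lowest regions were dim in both pools. The lowest, chr7:109875284-109876520, had M of -2.20 and -2.17 in the food restricted pool and -2.51 and -2.45 in the control pool. Of its 9 probes, 2 and 1 were well above background in the precipitated channel of the food restricted pool and 1 and 1 in that of the control pool, while 8 or 9 were in the reference channel on each array. The others were chr7:111710772-111712155, chr7:110366160-110367559, chr7:110134538-110135509 and chr7:109785404-109786754, with mean M over the 4 arrays between -1.95 and -1.83. In all 5 the food restricted value was above the control value on both slides. Since signal at the floor has no order, these differences are given as values only.

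The regions next to the interval that holds the beta-globin genes differed from each other. On the left, chr7:110891940-110893363 had -0.60 and -0.51 in the food restricted pool and -0.64 and -0.35 in the control pool, and it was dim in both pools. On the right, chr7:111700976-111702452 had 0.85 and 0.78 in the food restricted pool and 0.98 and 1.00 in the control pool, and it was measured in both. Neither differed between the pools by as much as 0.5 on any slide.

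The comparison of the pools asked where maternal food restriction went with a different enrichment. D denotes the difference in M between the pools of a slide, food restricted minus control. Regions were called where D reached 0.5 on both slides in the same direction, which is 1.41-fold. Among the 220 class I regions 7 were called higher (3.18%) and 4 lower (1.82%). Over all regions 4.55% were called higher and 0.643% lower. Another 6 class I regions (2.73%) passed the size with opposite signs on the slides, against 0.717% of all regions. In the class II intervals on chromosomes 2 and 9, 2.75% and 5.24% of regions were called higher, 4.51% and 3.14% lower, and 3.53% and 2.62% had opposite signs. The share of higher calls stood below that of the array in this setting and in several others. It was 4.545% against 8.519% with loess, 0.9091% against 2.718% with normexp and 1.25% against 5.704% without dim precipitated probes. With means over probes it was 1.818% against 3.108%, and with at least 5 probes 2.01% against 4.341%. In further settings it stood above the array, such as 5.854% against 4.171% without dim reference probes and 7.317% against 5.968% with joining within 250 bp. The share of lower calls stood below that of the array in the precipitated channel alone (1.364% against 1.725%). With normexp and without dim precipitated probes 0 class I regions were called lower, against 0.001765% and 0.06615% over the array.

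The SD of D over the class I regions was 0.41 on slide 1 and 0.42 on slide 2. Over all regions it was 0.37 on both slides, and in the class II intervals it was 0.47 and 0.49 on chromosome 2 and 0.47 and 0.51 on chromosome 9. Between the slides D correlated at r = 0.29 over the 220 regions, at r = 0.34 over all regions and at r = 0.18 and 0.20 in the class II intervals, a description across regions that share arrays and brightness. The median D, averaged over the slides, was 0.04 in the class I regions and 0.06 over all regions. D was positive on both slides in 80 class I regions (36.4%) and negative on both in 57 (25.9%), against 39.1% and 23.7% of all regions.

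Most of the calls lay in dim regions. In the 143 class I regions that were dim in either pool, the SD of D was 0.45 and 0.46 on the slides, and 6 were called higher (4.20%), 3 lower (2.10%) and 6 with opposite signs (4.20%). Over all regions dim in either pool the shares were 6.77%, 1.70% and 2.16%. In the 77 dim in neither pool the SD was 0.27 and 0.32, with 1 called higher (1.299%), 1 lower (1.299%) and 0 with opposite signs, against 3.97%, 0.367% and 0.341% of all regions dim in neither. Between the slides D correlated at r = 0.24 in the dim and 0.40 in the other class I regions, against 0.22 and 0.40 over all regions of the same brightness. The median D of these 77 was -0.09, against 0.04 over the 44933 regions of the array that were dim in neither pool. When single dim precipitated probes were left out instead, the median D of the class I regions was 0.0349, against 0.1007 over the array. Its sign thus depended on how bright regions were chosen. Among the 77, D was negative on both slides in 32 (41.6%) and positive on both in 19 (24.7%), against 25.7% and 37.5% of the regions of the array dim in neither pool. The centred precipitated signal of these 77 differed by -0.34 and -0.27 between the pools in the median, against -0.20 and -0.18 over the 44933 regions.

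**Figure D4:**
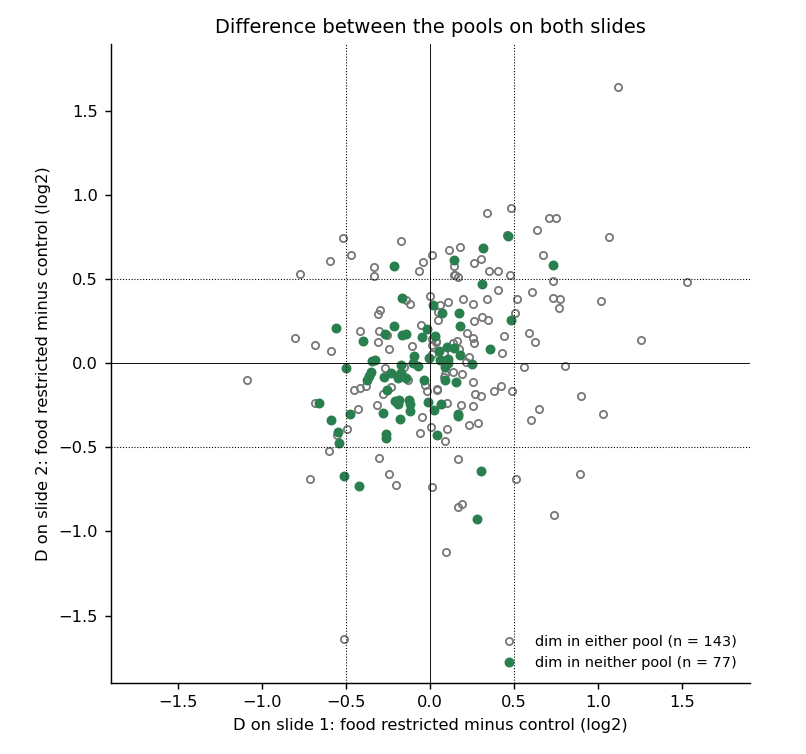
D on slide 2 against D on slide 1 for the 220 class I regions, food restricted minus control pool, with open circles for regions dim in either pool and filled circles for those dim in neither, and dotted lines at 0.5 and -0.5. The filled points lie closer to 0, and of the 17 regions beyond the lines on both slides 2 are filled.

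Other sizes gave further counts. At 0.3, 27 class I regions were higher and 12 lower (12.3% and 5.45%), against 12.2% and 2.68% of all regions. At 1.0, 1 was higher and 0 were lower, against 0.192% and 0.0424% of all regions.

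The called regions measured in both pools were 1 higher and 1 lower. The higher, chr7:109683833-109684262 (3 probes), is the most enriched class I region, with M of 4.40 and 3.999 in the food restricted pool and 3.67 and 3.41 in the control pool. All its probes were well above background in both channels on every array. D was 0.73 and 0.59, which is 1.58-fold on average. Its centred precipitated signal differed by -0.55 and -0.07 between the pools and its centred reference signal by -0.55 and -0.26, so the higher ratio did not go with a higher precipitated signal. In the precipitated channel alone its mean D was -0.31. With quantile normalization its mean D was 0.05 and with the running median of D along M taken off it was 0.09, and the call was lost in both. Of the next regions by mean M, the one at 109727084 had D of 0.17 and 0.05 and the one at 110486398 had D of 0.46 and 0.76, and neither was called.

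The lower region, chr7:109832023-109833535 (12 probes), had M of -0.49 and -0.17 in the food restricted pool and 0.02 and 0.50 in the control pool. The pools did not overlap, D was -0.51 and -0.67, and the region was 1.51-fold lower in the food restricted pool. Between 10 and 12 of its probes were well above background in the precipitated channel on each array. Its precipitated signal differed by -0.29 and -0.54 and its reference signal by 0.10 and 0.12. Over 13 alternative ways of processing, its D kept its direction, between -0.75 and -0.15, and it was called in 5 of them. These 5 include the value table and the setting of at least 5 probes, which leave its values all but unchanged. The call was lost without dim precipitated probes, where 11 probes gave a D of -0.159. It was also lost with loess (-0.158), with normexp (-0.145) and with means over probes (-0.285).

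In 3 higher regions the control pool alone was dim. The largest difference of all class I regions was at chr7:111990946-111991662 on the right side, with M of -0.83 and -0.68 in the food restricted pool and -1.95 and -2.32 in the control pool. It has 3 probes, of which 2 were well above background in the food restricted pool and 1 in the control pool on each slide. Its centred precipitated signal differed by 2.01 and 2.21 between the pools and its reference signal by 0.38 and 0.37. D was 1.12 and 1.64, but with normexp its mean D was -0.103. With the control pool at the lowest signal called well above background no fold above 1 was left. The second, chr7:109873976-109875150 (5 probes), had -0.12 and 0.21 in the food restricted pool and -0.82 and -0.65 in the control pool. With the control pool set at that lowest signal it was 1.12-fold higher, a bound that holds for this processing only. Its direction turned with normexp (-0.0901), with loess (-0.131) and without dim reference probes (-0.0412). The third was chr7:111837046-111837363 (3 probes), with -1.73 and -0.97 in the food restricted pool and -2.37 and -1.76 in the control pool, and no fold is given.

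The other 3 higher regions and 3 lower regions were dim in both pools and have no fold. Higher were chr7:110197950-110199801, with D of 0.67 and 0.65, chr7:110861645-110862962, with 1.06 and 0.75, and chr7:112025770-112027182, with 0.75 and 0.87. In each of them M of both arrays of the food restricted pool lay above that of both arrays of the control pool. The pools were apart in the other direction in the lower regions at 109951239 and 110731558. The calls were made on the same values and the regions are dim, so this separation adds no support. Lower were chr7:109951239-109951932, with D of -0.72 and -0.69, chr7:110731558-110732592, with -0.51 and -1.64, and chr7:112068922-112069275, with -0.60 and -0.52. In the last, 0 of 3 probes were well above background in the precipitated channel on any array, and in the second the direction turned to 0.0864 without dim reference probes. With loess the last turned to 0.169, and with normexp the higher regions at 110197950 and 112025770 turned to -0.0125 and -0.1.

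**Figure D5:**
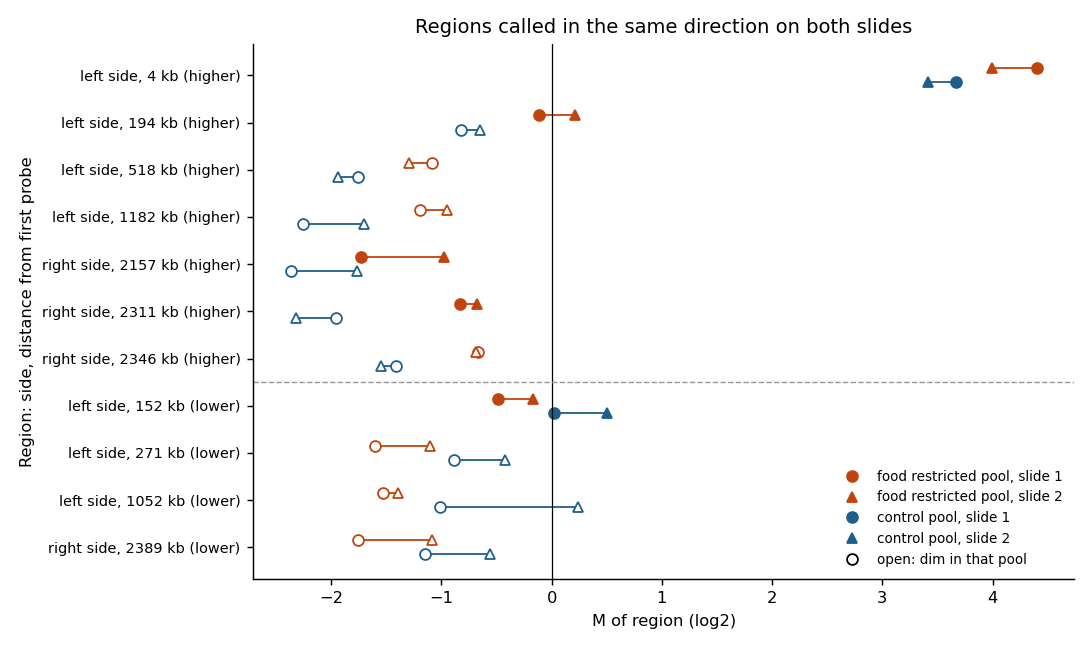
M on each array for the 11 called class I regions, given by side and distance in kb from the first probe of the left side, with the food restricted pool above the control pool in each row, circles and triangles for slides 1 and 2, and open symbols where the region was dim in that pool. The 7 higher regions are above the dashed line and the 4 lower regions below it, and 1 of each is filled in both pools.

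The 3 regions whose D differed most between the slides show the size of the disagreement. At chr7:110667221-110668184 (7 probes) M was 0.37 and 0.21 in the food restricted pool and -0.37 and 1.11 in the control pool, so that D was 0.74 and -0.90. At chr7:110809752-110811225 D was 0.89 and -0.66, and at chr7:111733835-111735511 it was 1.03 and -0.30. At the first and second of these the control pool differed more between the slides than the food restricted pool. All 3 were dim in both pools.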

How the data were processed

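DNA methylation was measured by precipitation of methylated DNA from 2 pools of fetal liver and hybridisation to 2-colour tiling arrays. Per the file headers, the deposited scanner intensities came from Agilent Feature Extraction 10.5.1.1. The processed intensity of each channel was used as deposited. The values show background subtraction and a linear dye factor within an array. The deposited value table holds log2 ratios of red over green, of which the columns for the food restricted array of slide 1 and the control array of slide 2 carry each other's scanner values (equal within 0.001 at 100% of probes). The scanner files were therefore used, with the table as an alternative under the columns they match. Fragmentation, antibody and any amplification are not stated in the sources used here.

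Of 420288 spots, 4474 control spots and 65 flagged outliers were left out. M was turned by the dyes named in the titles and set to a median of 0 on each array, without loess or quantile normalization. The flag for signal well above background was taken as deposited. The median precipitated signal of the class I probes lay between 8.07 and 17.3 units, which limits the precision of M there. Python 3.11.15, pandas 2.3.3, R 4.3.3 and limma 3.58.1 (normexp with an offset of 50, loess and quantile alternatives) were used. The calling steps were also run on simulated data with independent noise for each probe and no signal floor. That run checks the code and cannot speak for calls in dim regions. With 1 pool in each group no test was run.

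Regions named in the text were, by rule, the called ones, the 5 highest and 5 lowest with at least 5 probes, the 2 next to the beta-globin interval and the 3 with the greatest disagreement between the slides. The intervals, the comparison intervals and these rules were chosen with earlier results of these data known. The division by distance from a window centre was added after the data had been seen.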

Additional observations from a re-analysis of the deposited data

How the results depend on the processing

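Precision was limited by dim precipitated signal and by the number of arrays, and causes were not tested except where a setting itself gives them. Values are given in the order median M of the class I regions in the food restricted pool and in the control pool, class I minus other regions, left minus right side, median D, and regions called higher and lower, which were -0.752, -0.812, -0.724, 0.441, 0.0354, 7 and 4 as reported. With normexp, whose offset shrinks dim signal, they were 0.000659, 0.036, 0.0317, 0.0069, -0.0268, 2 and 0. These calls were 0.9091% and 0%, against 2.718% and 0.001765% of all regions. With loess within arrays the levels and differences were -0.105, -0.0915, -0.0754, 0.259 and 0.0613. There, 10 were higher and 2 lower (4.545% and 0.9091%, against 8.519% and 0.4183% of all regions). Quantile normalization moved the food restricted level to -0.822, median D to -0.0867 and the higher calls to 4. With it 6 were lower (2.727%, against 1.026% of all regions). Without centring, the levels were -0.901 and -1.05 and median D was 0.12, with 15 higher and 1 lower (6.818% and 0.4545%, against 7.186% and 0.4007% of all regions). Centring on the densest value turned the levels to 0.229 and 0.325 and median D to -0.12. It gave 4 higher and 8 lower (1.818% and 3.636%, against 1.716% and 1.742% of all regions). Without dim reference or saturated probes the values were -0.874, -1.1, -0.95, 0.25, 0.0592, 12 and 2 (5.854% and 0.9756% called, against 4.171% and 0.3109%). Without dim precipitated probes, which keeps 80 regions, they were 0.479, 0.625, 0.495, -0.321 and 0.0349. Here 1 was higher (1.25%, against 5.704% of all regions) and 0 were lower (against 0.06615%). Means over probes gave levels of -0.653 and -0.643, a left minus right difference of 0.537, a median D of 0.0446, 4 higher and 1 lower. The calls were 1.818% and 0.4545%, against 3.108% and 0.1889% of all regions. Joining within 250 bp gave -0.812 and -0.98, a median D of 0.0245 and 18 higher (7.317%, against 5.968%). The share of higher calls also stood above that of all regions with quantile normalization (1.818% against 1.179%), in the precipitated channel alone (4.091% against 3.327%) and with the running median taken off (1.364% against 1.096%). With at least 5 probes left minus right was 0.351 and median D 0.0404. That setting gave 4 higher and 2 lower (2.01% and 1.005%, against 4.341% and 0.5135% of all regions). The precipitated channel alone gave -1.99, -2.05 and -2.02 and a median D of -0.0478. With the running median of D along M taken off, median D was -0.0941 and 3 were higher. The value table changed none of these beyond the spread. At a call size of 0.3, 27 were higher and 12 lower (12.27% and 5.455%, against 12.16% and 2.678% of all regions). At 1.0 the counts were 1 and 0 (0.4545% and 0%, against 0.1924% and 0.04236%). On a single slide, where a call needs no second slide, 28 to 35 were higher (12.73% and 15.91%) and 18 were lower (8.182%), against 12.35% and 13.77% higher and 4.487% and 3.749% lower over all regions, the food restricted level lay between -0.745 and -0.722, the control level between -0.92 and -0.789, and median D between 0.0357 and 0.0427. With no replicate block, that is with D taken across the slides, 7 were higher and 1 lower, against 7 and 4 with the block. Without it the shares were 3.182% and 0.4545%, against 3.961% and 0.4395% of all regions.

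Single called regions turned direction as follows. With normexp the mean D was -0.0901 at 109873976, -0.0125 at 110197950, -0.103 at 111990946 and -0.1 at 112025770. With loess it was -0.131 at 109873976 and 0.169 at 112068922. Without dim reference probes it was -0.0412 at 109873976 and 0.0864 at 110731558, and in the precipitated channel alone -0.31 at 109683833. The last region also lost its call with quantile normalization (0.0531) and with the running median taken off (0.0863).

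For the step of M between 1500 to 2000 bp and the window centre, 1.06 as reported, alternatives added after the data had been seen gave 0.118 with normexp, 0.587 with loess, 1.09 with quantile normalization, 1.28 without dim reference probes, 2.37 without dim precipitated probes and 1.83 in the precipitated channel alone, and between 0.993 and 1.23 on a single slide. The direction was kept in these alternatives.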
